A study of Mus musculus with 6 samples.

Results

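The RNAs of 10 enzymes that clear superoxide and hydrogen peroxide were followed in mouse embryonic fibroblasts with a control guide or a guide against p53: the superoxide dismutases Sod1 and Sod2, catalase (Cat), glutathione peroxidase 1 (Gpx1) and the peroxiredoxins Prdx1 to Prdx6. They were taken by gene symbol from a count table of 23420 genes, and all 10 were present and passed the filter on low counts. The fibroblasts, of mixed 129/Sv-C57BL/6 background, carried the adenoviral oncogene E1A and the activated Ras gene HrasG12V. Each of 3 lines gave a control library, made with a guide that targets nothing (sgNTC) and labelled p53 wild-type, and a library made with the p53 guide sgp53(1), so each group had 3 libraries. All cells had 24 h in 5% oxygen and 5% CO2 before harvest. The sgp53 cells are labelled p53 null in lines 1 and 3 and functionally inactive in line 2. The sample descriptions give lines 2 and 3 a number in common, without saying what it marks. The labels do not state whether the lines came from separate embryos, so the p-values measure the spread between these lines.

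Superoxide, formed mainly where electrons leak from the respiratory chain or are passed on by NADPH oxidases, is converted by superoxide dismutases to hydrogen peroxide and oxygen. Catalase breaks peroxide down in peroxisomes, glutathione peroxidases reduce it with glutathione, and peroxiredoxins reduce it with a reactive cysteine that is mostly restored by thioredoxin. p53 is known to act on several antioxidant genes, among them the sestrins, and SOD2 and GPX1 have been named among its targets in other cells.

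Library totals ran from 27503577 to 35860866 counts. Trp53, the targeted gene, fell in all 3 lines (log2 fold change -1.52, edgeR adjusted p = 0.0168), and Cdkn1a, a classic p53 target, fell with it (-3.01, edgeR adjusted p = 0.000509). Of 10 fibroblast markers, Vim and Fn1 were abundant in all libraries, while Col1a1 was between 5.18 and 12.6 counts per 1000000 (CPM) in sgNTC and between 221 and 744 CPM in sgp53. Dcn was under 1 CPM in every library other than sgp53 line 3 (8.35 CPM). The summed level of 6 epithelial markers was between 295 and 690 CPM in sgNTC and between 116 and 165 CPM in sgp53. Most of it was Krt18 (mean 415 CPM in sgNTC and 66.7 CPM in sgp53) and Epcam (74.8 and 33.2 CPM). The means of Krt19 were 36.2 and 27.7 CPM and those of Cdh1 3.46 and 3.69 CPM. Krt8 and Cldn7 reached at most 2.28 and 0.779 CPM in any library. Markers of macrophages, endothelium and red cells summed to at most 10.5, 2.76 and 0.751 CPM in any library. Adgre1, Hba-a1 and Hba-a2 had no count. The ribosomal precursor Rn45s was at 3338 CPM in sgp53 line 3, against 636 to 864 CPM in the other libraries.

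None of the 10 enzymes passed the test between sgp53 and sgNTC, against a background of 6.45% of the 13044 genes tested. This was the result of edgeR's quasi-likelihood test with Benjamini-Hochberg adjustment over all tested genes and a threshold of 0.05; DESeq2 (background 17.3% of 13771 genes), limma-voom (background 5.35%) and edgeR with the line as a block (background 2.38%) also called 0 of the 10. At such shares 10 genes can readily hold 0 calls, so these counts do not set the enzymes apart from other genes. At an unadjusted p under 0.05 there was 1 enzyme, Sod2, against 29% of all tested genes. The log2 fold changes of the enzymes lay between -0.15 for Cat and 0.22 for Sod2, with 5 positive and 5 negative and a median of -0.01, the same as the median over all genes tested (-0.01). Their median size was 0.067, against 0.19 over all genes tested. The 95% interval of the fold change lay within 1.5-fold in either direction for all 10 enzymes, against 57.2% of tested genes; of the 5014 tested genes with a mean of at least 50 CPM, a level that all 10 enzymes passed, 83.2% did so. That comparison by level was added with the results known. In bulk cultures, fewer cells that express a gene and less RNA per cell cannot be told apart.

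**Figure D1:**
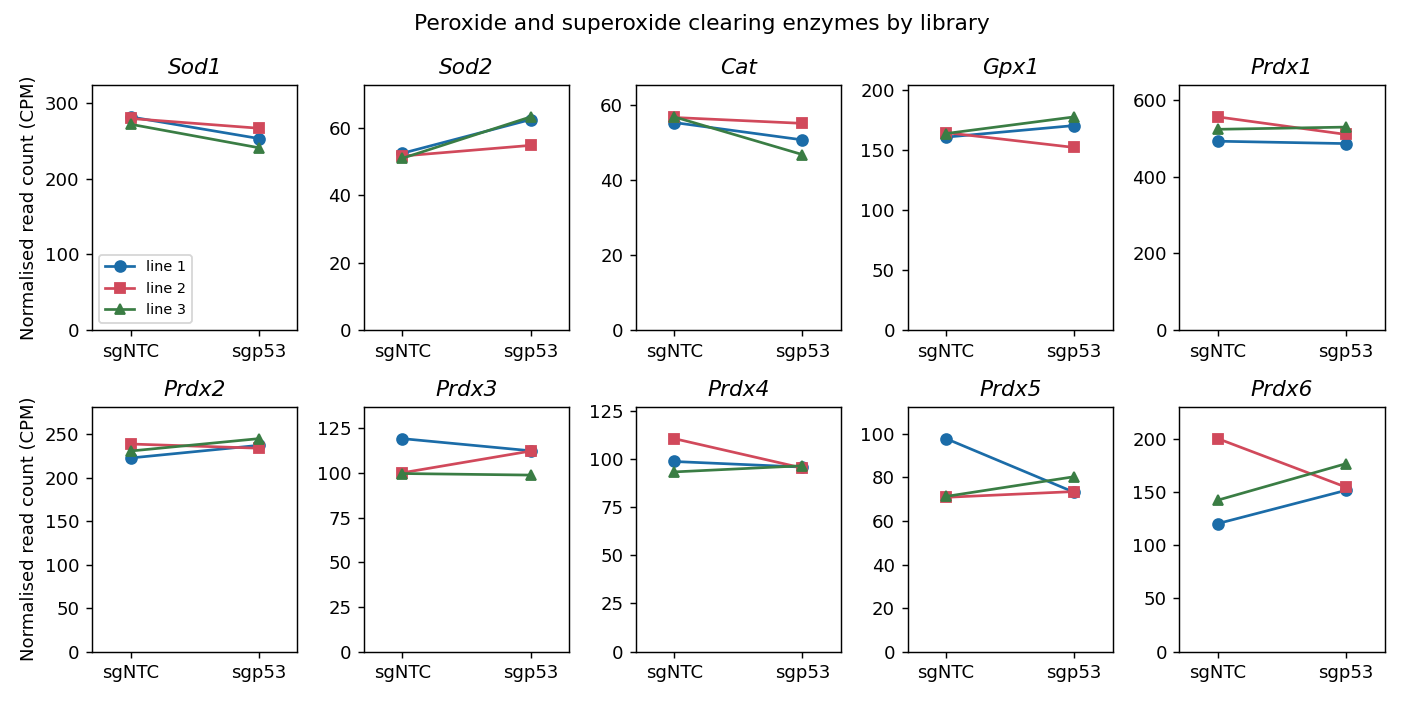
Normalised read count (CPM, axis from 0) of each of the 10 enzymes in the sgNTC and sgp53 library of each line, joined by line. Sod1, Sod2 and Cat are the panels in which the groups did not overlap. In the panels of Prdx5 and Prdx6 the sgNTC points are spread more widely than the sgp53 points.

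The groups did not overlap for 3 enzymes, Sod1, Sod2 and Cat, which is 3 of 10 against 36.8% of all tested genes. The 3 enzymes were also those with the same sign of difference in all 3 lines, a property that non-overlapping groups fix in advance and that 52.2% of tested genes had. The 250 bases upstream of their RefSeq starts (build GRCm38.p6) are printed here because these enzymes had the smallest p-values of the set and include the most positive and the most negative fold change. Capitals mark, in Sod1, the antioxidant response element core (TGACNNNGC, bound by NRF2) and the GC boxes (GGGCGG, bound by SP1-type factors), in Sod2 the GC boxes, and in Cat the CCAAT boxes (CCAAT), each searched on both strands. GC boxes at neighbouring places in Sod1 overlap each other.
Sod1, chr16:90220512-90220761, plus strand: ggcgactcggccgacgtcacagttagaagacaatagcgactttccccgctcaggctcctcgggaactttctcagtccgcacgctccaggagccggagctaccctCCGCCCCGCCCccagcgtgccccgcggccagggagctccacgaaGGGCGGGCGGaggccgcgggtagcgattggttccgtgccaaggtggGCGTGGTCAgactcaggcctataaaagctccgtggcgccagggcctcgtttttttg
Sod2, chr17:13007589-13007838, plus strand: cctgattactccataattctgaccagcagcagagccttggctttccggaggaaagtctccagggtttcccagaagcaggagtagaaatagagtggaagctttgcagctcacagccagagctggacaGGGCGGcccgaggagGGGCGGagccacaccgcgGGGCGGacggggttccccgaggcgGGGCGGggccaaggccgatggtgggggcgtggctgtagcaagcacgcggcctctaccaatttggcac
Cat, chr2:103485154-103485403, minus strand: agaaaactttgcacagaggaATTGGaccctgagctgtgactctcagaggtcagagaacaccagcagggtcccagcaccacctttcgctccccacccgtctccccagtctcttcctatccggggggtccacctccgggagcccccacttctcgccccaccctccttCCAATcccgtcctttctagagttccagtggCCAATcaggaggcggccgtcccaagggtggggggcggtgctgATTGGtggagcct

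Sod1 had 4 GC boxes and 1 antioxidant response element core, Sod2 had 4 GC boxes and Cat had 4 CCAAT boxes in these windows. Over the 32851 RefSeq windows of this length, 32.7% held a GC box, 33.8% a CCAAT box and 10.2% an antioxidant response element core. Among the 9 enzymes with a window, 7 held a GC box, 4 a CCAAT box and 2, Sod1 and Prdx1, the antioxidant response element core. The p53 decamer consensus occurred in the window of Prdx4 and in no other of the 9, against 7.13% of all windows. The NF-kappaB consensus occurred in those of Gpx1, Prdx1, Sod2 and Cat, against 7.25%. These are matches of letters in a short window and say nothing about binding. The shares of all windows were not matched to the enzymes for expression or base content, so no enrichment is read from them.

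Sod2 (chromosome 17, 13007839 to 13018119) encodes the manganese superoxide dismutase of the mitochondrial matrix. In lines 1, 2 and 3, in this order here and for the enzymes that follow, the control libraries had 52.4, 51.6 and 50.9 CPM, and the p53 guide libraries 62.4, 54.8 and 63.2 CPM. The 3 sgNTC values were nearly equal, all sgp53 values lay above them, and sgp53 line 2 lay nearest. Mean ± SD over 3 libraries, as for all such values here, was 51.6 ± 0.746 in the controls and 60.1 ± 4.67 CPM in sgp53. The fitted log2 difference of 0.22 (SE 0.07, 95% interval 0.05 to 0.39) missed the threshold (edgeR adjusted p = 0.108). Leaving out sgp53 line 2 gave 0.28 (edgeR adjusted p = 0.0669), the smallest adjusted p of any enzyme in the 15 alternatives, and leaving out sgp53 line 3, the library with high Rn45s, gave 0.18 (edgeR adjusted p = 0.24).

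Sod1 (chromosome 16, 90220762 to 90226333) encodes the copper and zinc dismutase of the cytosol and the space between the mitochondrial membranes. It was at 282, 280 and 272 CPM in sgNTC and at 253, 267 and 241 CPM in sgp53. Every sgp53 value lay below every sgNTC value, with sgNTC line 3 and sgp53 line 2 the nearest pair. The means were 278 ± 5.13 and 254 ± 12.9 CPM (log2 fold change -0.13, SE 0.06, 95% interval -0.26 to 0.0014, edgeR adjusted p = 0.176). Without sgp53 line 3 the fold change was -0.09.

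Cat (chromosome 2, 103453904 to 103485153) encodes catalase, the heme enzyme of peroxisomes. It was at 55.2, 56.6 and 56.8 CPM in sgNTC and at 50.6, 55.03 and 46.7 CPM in sgp53. The highest sgp53 value, of line 2, lay just under the lowest sgNTC value. The means were 56.2 ± 0.83 and 50.8 ± 4.16 CPM (log2 fold change -0.15, SE 0.07, 95% interval -0.32 to 0.03, edgeR adjusted p = 0.242). The fold change was -0.09 without sgp53 line 3, a value 1.5 or more times smaller, and -0.20 without sgp53 line 2.

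The genes whose pattern over the 6 libraries was most like that of Sod2 were Eif3d, a subunit of a translation initiation factor, Ddx3x, an RNA helicase, and Rsl1d1, a nucleolar protein. The root mean square difference of their centred log2 CPM from that of Sod2 was 0.014, 0.016 and 0.017. The median over the 9407 other genes with a mean of at least 10 CPM was 0.18. These 3 genes were picked as the nearest, so values far under the median were fixed in advance. Eif3d, for example, was at 377, 374 and 364 CPM in sgNTC and at 439, 389 and 447 CPM in sgp53, with the lowest sgp53 value again in line 2.

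Gpx1 (chromosome 9, 108339080 to 108340342) encodes a selenium enzyme of cytosol and mitochondria. Its reading frame holds a TGA codon that is read as selenocysteine, the residue that reacts with peroxide, and this is codon 47 in GENCODE M21. The stretch around it is printed because it is what ties Gpx1 to the selenoprotein factors described further on, with the codon in capitals.
Gpx1, chr9:108339424-108339480 of GRCm38, plus strand: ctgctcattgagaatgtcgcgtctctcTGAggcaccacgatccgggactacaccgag

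Gpx1 RNA was at 161, 165 and 164 CPM in sgNTC and at 171, 152 and 178 CPM in sgp53. The sgNTC values lay inside the range of the sgp53 values, whose lowest was line 2. The means were 163 ± 1.98 and 167 ± 13.1 CPM, a log2 fold change of 0.03 (95% interval -0.13 to 0.20, edgeR adjusted p = 0.78). Without sgp53 line 3 the value was -0.014.

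The 6 peroxiredoxins had overlapping groups, and their fold changes lay between -0.08 and 0.06. Prdx1 and Prdx2 are the abundant peroxiredoxins of the cytosol and nucleus. Prdx1 (chromosome 4, 116685599 to 116700000) had the highest count of the 10 enzymes, 493, 556 and 524 CPM in sgNTC and 486, 510 and 530 CPM in sgp53. Its means were 524 ± 31.8 and 509 ± 21.6 CPM (log2 fold change -0.04, 95% interval -0.20 to 0.11, edgeR adjusted p = 0.691), and without sgNTC line 2 the value was 0.0015. Prdx1 is a known NRF2 target, and its upstream window, printed for its single antioxidant response element core in capitals, was as follows.
Prdx1, chr4:116685349-116685598, plus strand: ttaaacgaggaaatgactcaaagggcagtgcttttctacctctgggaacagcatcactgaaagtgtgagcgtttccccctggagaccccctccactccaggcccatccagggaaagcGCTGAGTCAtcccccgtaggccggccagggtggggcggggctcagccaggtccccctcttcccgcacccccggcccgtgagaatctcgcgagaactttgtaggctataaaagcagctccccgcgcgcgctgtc

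Prdx2 (chromosome 8, 84969622 to 84974811) was at 223, 239 and 231 CPM in sgNTC and at 237, 234 and 245 CPM in sgp53. The values of both groups were interleaved, with means of 231 ± 8.04 and 239 ± 5.65 CPM (log2 fold change 0.05, 95% interval -0.07 to 0.17, edgeR adjusted p = 0.554). The log2 fold change was 0.024 without sgNTC line 1, 0.074 without sgNTC line 2 and 0.031 without sgp53 line 3. Its SD over the 6 libraries, 0.047 on the log2 scale, was the smallest of the 10 enzymes. This SD stood at percentile 2.3 of all tested genes, a rank not matched for level. The median SD was 0.18 over all tested genes and 0.12 over those with a mean of at least 50 CPM.

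Prdx3 (chromosome 19, 60864066 to 60874538) is the peroxiredoxin of the mitochondrial matrix. It was at 119, 100.1 and 99.7 CPM in sgNTC and at 112, 112 and 98.8 CPM in sgp53, and the libraries of line 3 were the lowest in both groups. The log2 fold change was 0.02 (95% interval -0.21 to 0.25, edgeR adjusted p = 0.907). It was -0.022 without sgNTC line 2, -0.025 without sgNTC line 3, -0.011 without sgp53 line 1 and -0.0071 without sgp53 line 2. Prdx4 (chromosome X, 155323918 to 155342272) works in the endoplasmic reticulum, where it uses peroxide made in disulfide formation. Its levels were 98.6, 110 and 93.2 CPM in sgNTC and 95.7, 95.2 and 96.4 CPM in sgp53, and all sgp53 values fell inside the sgNTC range (log2 fold change -0.07, 95% interval -0.25 to 0.10, edgeR adjusted p = 0.539).

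Prdx5 and Prdx6 differed most between libraries, and in both the spread was larger in sgNTC than in sgp53. Prdx5 (chromosome 19, 6906697 to 6910106), found in mitochondria, peroxisomes and cytosol, was at 97.8 CPM in sgNTC line 1 and between 70.9 and 80.3 CPM in the other 5 libraries. Its fold change was -0.08 (95% interval -0.41 to 0.25, edgeR adjusted p = 0.724), and 0.09 without sgNTC line 1. Within lines 1, 2 and 3 the log2 difference was -0.42, 0.05 and 0.17. Prdx6 (chromosome 1, 161240112 to 161251210), which has 1 active cysteine, uses glutathione and also acts as a phospholipase, was at 120, 200.3 and 142 CPM in sgNTC and at 152, 155 and 177 CPM in sgp53. The sgNTC libraries held both its lowest and its highest value. The differences within lines were 0.33, -0.37 and 0.31, so line 2 went the other way, and the fitted log2 fold change was 0.06 (95% interval -0.38 to 0.51, edgeR adjusted p = 0.852). It was -0.09 without sgNTC line 1, 0.29 without sgNTC line 2 (edgeR adjusted p = 0.195) and -0.0097 without sgp53 line 3. The sign of Prdx5 thus changed without 1 sgNTC library, and that of Prdx6 without either of 2 libraries, 1 of each group.

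**Figure D2:**
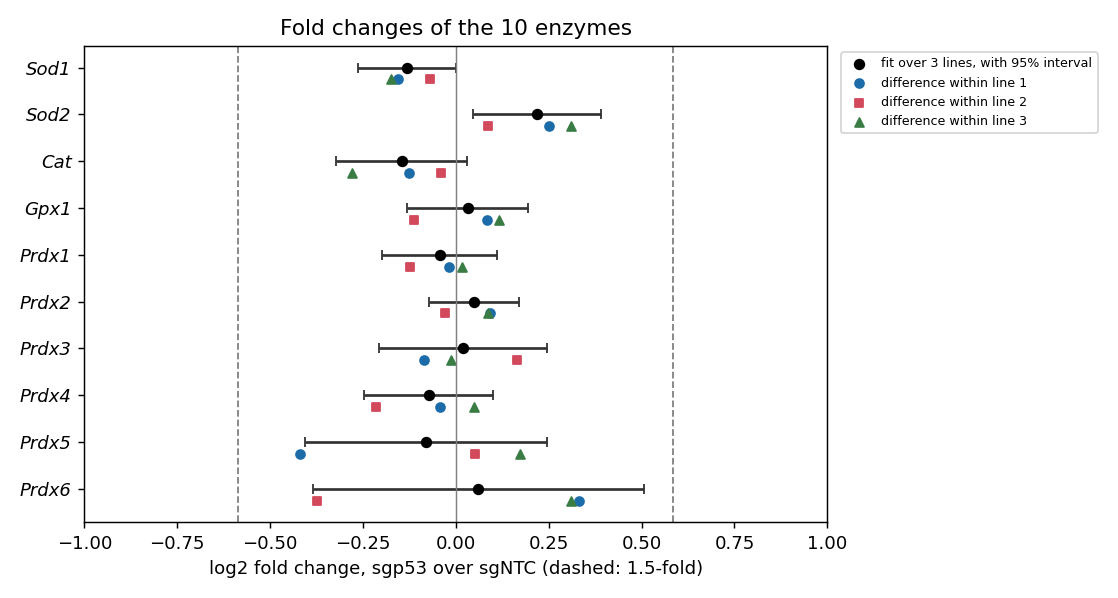
Log2 fold change of sgp53 over sgNTC for the 10 enzymes, as the fitted value with its 95% interval (black) and as the difference within each line (coloured). All intervals lie between the dashed lines at 1.5-fold, and those of Prdx5 and Prdx6 are the widest, with lines on both sides of 0.

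Between lines, with the guide held fixed in the model, 0 of the 10 enzymes and 0% of all tested genes passed (edgeR adjusted p under 0.05), a test with 2 residual degrees of freedom. At an unadjusted p under 0.05 there were 0 enzymes, against 3.53% of all tested genes, and neither DESeq2 nor limma-voom was run for the lines. Prdx3 had the smallest p between lines (edgeR adjusted p = 0.968). The SD of log2 CPM over the 3 sgNTC libraries was 0.018 for Gpx1, 0.021 for Sod2, 0.021 for Cat and 0.027 for Sod1, and it was 0.12, 0.11, 0.12 and 0.073 for the same enzymes in sgp53. Peroxiredoxins had the reverse order: in each of the 6, the SD was larger in sgNTC than in sgp53. For Prdx6 it was 0.37 and 0.12, and for Prdx4 0.12 and 0.0087. The median SD over all tested genes was 0.13 in both groups; the SD was below the median for 7 enzymes in sgNTC and for all 10 in sgp53. Against the medians of the tested genes with a mean of at least 50 CPM, 0.080 in sgNTC and 0.087 in sgp53, 5 of the 10 enzymes were below in each group. With 3 libraries a group, these differences of spread were not tested.

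**Figure D3:**
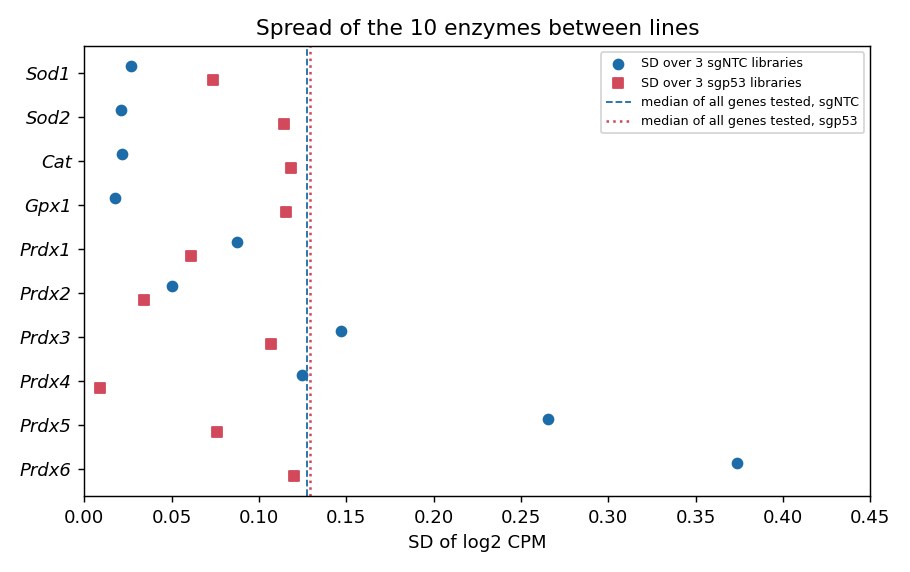
SD of log2 CPM over the 3 sgNTC libraries (circles) and the 3 sgp53 libraries (squares) for the 10 enzymes, with the median of all tested genes in each group as vertical lines. The sgNTC value is the smaller for Sod1, Sod2, Cat and Gpx1 and the larger for the peroxiredoxins. The sgNTC points of Prdx3, Prdx5 and Prdx6 lie to the right of the sgNTC median, and all sgp53 points lie to the left of the sgp53 median.

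Levels were compared between enzymes only per length, as CPM per kilobase of the exons of protein-coding transcripts in GENCODE M21 (RPKM). Sod1 had the highest mean level over the 6 libraries, 415 RPKM, followed by Prdx1 (193.5), Gpx1 (153.9), Prdx2 (118) and Prdx3 (72.4 RPKM). The ranges over the 6 libraries did not overlap between these neighbours. Prdx3, Prdx4 (68.4), Prdx6 (63.1) and Prdx5 (53.8 RPKM) had overlapping ranges, and Prdx6 alone ran from 48.2 to 80.2 RPKM. Cat followed at 20.5 and Sod2 at 9.35 RPKM, again with ranges apart. The length matters here: Sod2 has 5977 bases of annotated exon for 666 coding bases, and per kilobase of coding sequence Prdx1 stood above Sod1, Prdx2 above Gpx1, and Sod2 above Cat. Of the summed RPKM of the 6 peroxiredoxins, Prdx1 made up between 32.9% and 35.6% in the controls and between 32.8% and 34.1% in sgp53. The share of Prdx2 lay between 19.9% and 21.4% in all libraries, and that of Prdx6 between 8.59% and 13.3%, both ends in sgNTC.

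The genes that supply, assist or regulate these enzymes were taken from 10 lists of 92 genes, of which 81 were tested. Among these 1 was higher and 8 were lower in sgp53, 9 of 81 against 6.45% of all genes tested. The list of 8 redox genes chosen for their link to p53 held 3 of the 8 lower genes. How far the count of the 81 depends on that choice was not tested. The median log2 fold change of the 81 was -0.13, against -0.01 over all tested genes, and 24 of the 81 were positive. With the line as a block 5 of the 81 were lower and 0 higher, against 2.38% of all genes, and 3 of the 5 were p53-linked. DESeq2 called 19 of the 82 for which it gave an adjusted p (23.2%), against 17.3% of all genes, and limma-voom 9 of 81, against 5.35%. Gpx2, Gpx5, Gpx6, Sod3, Nox1, Nox3, Cybb, Duox1, Duox2, Xdh and Ppargc1a did not pass the filter on low counts. For the counts by list that follow, the shares over all tested genes were 6.45% called and 29% at an unadjusted edgeR p under 0.05.

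The thioredoxin cycle, which restores oxidized peroxiredoxins, had 0 calls among 8 genes (median -0.02), with 3 at an unadjusted edgeR p under 0.05. Thioredoxin, Txn1, was at 426 ± 21.8 CPM in sgNTC and 448 ± 19.9 CPM in sgp53, and its reductase Txnrd1 at 284 ± 13.1 and 285 ± 8.94 CPM. The 3 genes, named with their values known, were Txn2, Txnrd3 and Srxn1. Their log2 fold changes were 0.36, 0.53 and -0.35 (edgeR adjusted p = 0.0594, 0.0807 and 0.0633). Of 9 genes of glutathione supply and glutaredoxins, Glrx3, a glutaredoxin that carries iron-sulfur clusters, fell from 28.2 ± 2.43 to 19.8 ± 1.66 CPM (log2 fold change -0.51, edgeR adjusted p = 0.0431). The Glrx3 call was lost with the line as a block (edgeR adjusted p = 0.102) and without any 1 library (0.0533 to 0.135). Of the other glutathione peroxidases, 0 of 4 tested passed (1 at an unadjusted edgeR p under 0.05). Gpx4, which reduces lipid peroxides, was at 143 ± 7.95 and 161 ± 13.1 CPM, and Gpx8 of the endoplasmic reticulum at 95.8 ± 3.71 and 98.5 ± 20.6 CPM.

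Selenoprotein synthesis, on which Gpx1 and its TGA codon depend, had 0 calls among 6 genes (median -0.09), with 1 at an unadjusted edgeR p under 0.05. Sephs2, which makes the selenium donor, was at 103 ± 9.37 and 108 ± 3.02 CPM, and the selenocysteine elongation factor Eefsec at 45.1 ± 4.47 and 34.2 ± 3.63 CPM (log2 fold change -0.40, edgeR adjusted p = 0.0782). Of 4 tested genes of copper delivery to Sod1 and other copper enzymes, the copper pump Atp7a fell from 65.6 ± 5.2 to 51.0 ± 0.635 CPM (log2 fold change -0.36, edgeR adjusted p = 0.0377). The Atp7a call was lost with the block (edgeR adjusted p = 0.0877) and without any 1 library (0.051 to 0.115). Ccs, the chaperone that loads copper into Sod1, was at 40.7, 31.7 and 29.97 CPM in sgNTC and at 31.2, 27.8 and 33.6 CPM in sgp53 (a gene picked out with these values known).

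The peroxisome genes, which import catalase and build the organelle, had 0 calls among 14 (median -0.14), with 3 at an unadjusted edgeR p under 0.05. Pex5, the import receptor, was at 83.6 ± 4.59 and 83.4 ± 3.00 CPM and Pex19, a carrier of membrane proteins, at 131 ± 19.4 and 109 ± 6.51 CPM. Among 9 tested sources of superoxide and peroxide, 1 was higher and 1 lower, against 6.45% of all tested genes called. Monoamine oxidase A, Maoa, of the outer mitochondrial membrane, rose from 57.1 ± 4.17 to 76.0 ± 1.53 CPM (log2 fold change 0.41, edgeR adjusted p = 0.026). Acox3, a peroxisomal oxidase of branched fatty acids, fell from 19.5 ± 1.45 to 11.0 ± 1.62 CPM (-0.82, edgeR adjusted p = 0.027). The calls of Maoa and Acox3 were lost with the block (edgeR adjusted p = 0.0719 and 0.0659). Without 1 library, Maoa kept its call only without sgNTC line 1 (edgeR adjusted p 0.0207 to 0.103 over the 6 libraries) and Acox3 only without sgp53 line 2 (0.04 to 0.0977).

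NRF2 factors and targets had 0 calls among 8 genes (median -0.12, 1 at an unadjusted edgeR p under 0.05). NRF2 itself, Nfe2l2, was at 68.8 ± 0.952 and 75.4 ± 19.2 CPM and its inhibitor Keap1 at 99.3 ± 5.59 and 97.5 ± 6.72 CPM. The 1 gene was the NRF2 target Hmox1, named with its values known. Hmox1 was at 64.0 ± 10.5 and 41.5 ± 4.66 CPM (log2 fold change -0.63, edgeR adjusted p = 0.0542). Among 11 tested FoxO, PGC1 and NF-kappaB factors, 2 were lower, against 6.45% of all tested genes called. Foxo3, a factor known to act on Sod2 and Cat, was at 51.3, 68.2 and 62.9 CPM in sgNTC and at 31.4, 38.4 and 27.8 CPM in sgp53, groups well apart (log2 fold change -0.90, edgeR adjusted p = 0.0281, blocked 0.0444). Its call was lost without sgNTC line 2 or 3 and without sgp53 line 1 or 3 (edgeR adjusted p 0.0286 to 0.103 over the 6 libraries). Leaving out any 1 line also lost the Foxo3 call (edgeR adjusted p 0.0918 to 0.194). Esrra, a nuclear receptor of mitochondrial genes, fell from 34.6 ± 1.10 to 16.7 ± 2.29 CPM (-1.05, edgeR adjusted p = 0.00906), a call kept without any 1 library and lost without any 1 line (0.0782 to 0.0942).

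Of 8 redox genes linked to p53, 3 were lower and 0 higher, against 6.45% of all tested genes called. Their median log2 fold change was -0.34. Sesn2, a sestrin, of a family described as aiding the recovery of overoxidized peroxiredoxins, was at 94.6, 148 and 123 CPM in sgNTC and at 51.7, 60.9 and 49.1 CPM in sgp53. All sgp53 values lay far below the lowest sgNTC value (log2 fold change -1.17, edgeR adjusted p = 0.0198). The Sesn2 call was lost without sgNTC line 3 and without sgp53 line 1 or 3 (edgeR adjusted p 0.012 to 0.0807 over the 6 libraries). It was also lost without any 1 line (edgeR adjusted p 0.0682 to 0.171). The mitochondrial proline pathway enzyme Aldh4a1 fell from 41.5 ± 3.89 to 25.2 ± 1.41 CPM (-0.72, edgeR adjusted p = 0.0136). Its call was lost without sgNTC line 3 or sgp53 line 1 (edgeR adjusted p 0.0279 to 0.0536 over the 6 libraries). Leaving out any 1 line also lost the Aldh4a1 call (edgeR adjusted p 0.095 to 0.126). Trp53inp1, a stress protein with antioxidant function, had the largest fold change of the lists (-4.54, edgeR adjusted p = 0.00156) and kept its call in all 15 alternatives. The 2 other sestrins, Sesn1 (19.4, 18.8 and 20.7 CPM in sgNTC, 19.5, 22.1 and 20.3 CPM in sgp53) and Sesn3 (36.2, 27.7 and 32.3 CPM, then 26.1, 26.5 and 27.1 CPM), did not pass and were named after their values were seen.

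**Figure D4:**
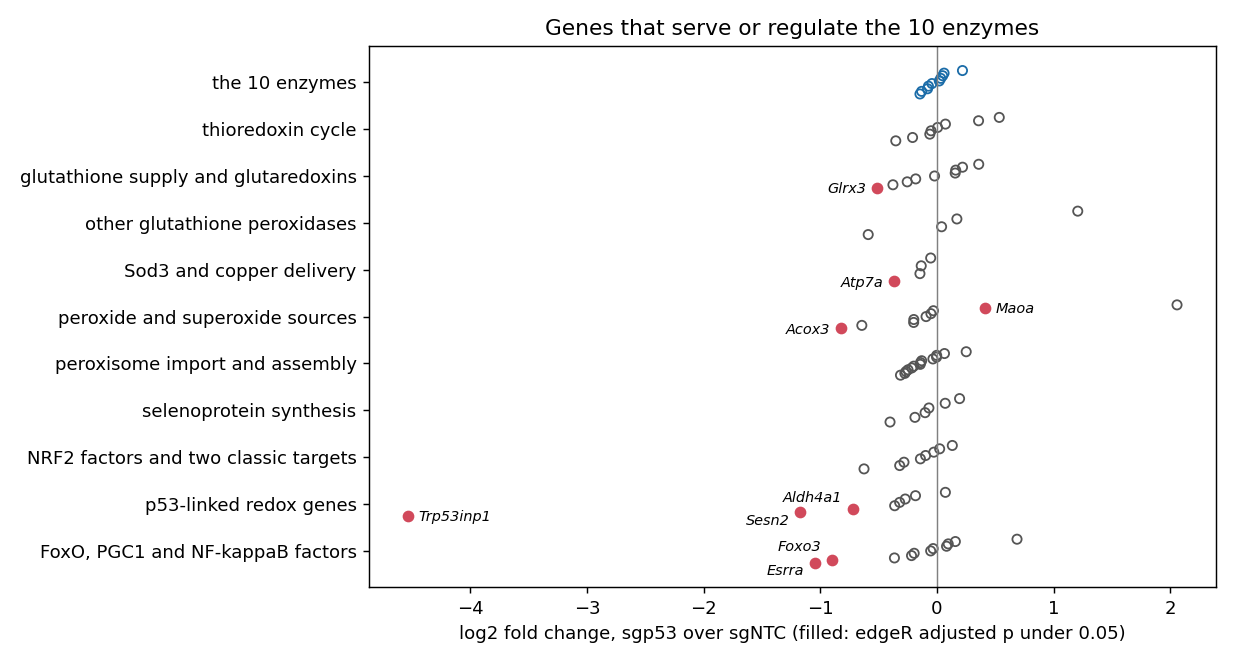
Log2 fold change of sgp53 over sgNTC for the 10 enzymes (top row, blue) and for each tested gene of the 10 lists of genes that serve or regulate them (filled and named where the edgeR adjusted p was under 0.05). The enzymes lie between -0.15 and 0.22, while Trp53inp1 stands at -4.54, and Sesn2 and Esrra below -1. The open points farthest right, picked out with their values known, are Maob (2.06, edgeR adjusted p = 0.213) and Gpx7 (1.21, edgeR adjusted p = 0.0996). Maob had few reads, 0.03 to 0.508 CPM in sgNTC and 0.444 to 2.28 CPM in sgp53, and its groups overlapped.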

How the data were processed

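The 6 RNA-seq libraries were made with Illumina's stranded TruSeq chemistry (1 µg input), per the labels' protocols. The deposited values are raw read counts per gene symbol, without normalization; CASAVA 1.8, STAR, DESeq2 and build mm10 are listed, per the submitters' processing notes, with no role given. Which counter and strandedness were used is not given in the sources used here. Hence Prdx1 and Prdx5, which overlap AV051173 and Trmt112 in the RefSeq table, may share reads with them, and pseudogene copies of Prdx1, Prdx2 and Prdx6 cannot be told apart.

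From the counts, 13044 genes passing filterByExpr were tested with edgeR 4.0.16 in R 4.3.3 (TMM, quasi-likelihood, 4 residual degrees of freedom, Benjamini-Hochberg adjustment over all of them). Intervals are the fold change ± SE times the t quantile, with the SE from the F statistic. CPM use normalized totals; log2 CPM a prior count of 2. DESeq2 1.42.0 and limma-voom (limma 3.58.1) were alternatives, with other scalings, no filter, the line as a block, and each library or line left out. Both libraries of a line number come from the same cell line, which pairs them; their deviations from the group means correlated at 0.0893, 0.00177 and -0.0272. The scripts were tested on simulated counts. Tigar and Adgre1 were found under older symbols, and sequences and coordinates are RefSeq's on GRCm38.p6 except the Gpx1 codon (GENCODE M21). Totals were 27503577 to 35860866 counts; the SE reflects counting error and the spread between libraries together.

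The members and lists were chosen with earlier results of these data known. Named genes are the 10 enzymes; Trp53 and Cdkn1a; per list up to 3 called genes or, with none called, the 2 of highest mean CPM; and the 3 genes nearest in pattern to the member of smallest p.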

Additional observations from a re-analysis of the deposited data

How the results depend on the processing

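The count of called enzymes was 0 in all 15 alternatives, as was the count between lines under the 2 alternatives run there. With a line left out only 19 to 64 of all genes were called, and between lines 0% of all tested genes passed in the main fit. A count of 0 enzymes therefore says little in those fits. It also says little in the main fit, where 6.45% of all tested genes were called. The 10 enzymes with an interval within 1.5-fold became 8 to 10 in the edgeR alternatives, which were added for this count after seeing the data; DESeq2 and limma-voom were not used for it. Of the 150 alternative fold changes of the 10 enzymes, 16 had the other sign, all of them with a library or line left out. Over those fits the log2 fold change ran from -0.014 to 0.11 for Gpx1, from -0.086 to 0.0092 for Prdx1, from -0.042 to 0.11 for Prdx3, from -0.13 to 0.012 for Prdx4, from 0.024 to 0.098 for Prdx2, from -0.20 to 0.11 for Prdx5 and from -0.0901 to 0.33 for Prdx6. The sign of Sod1, Sod2, Cat and Prdx2 was the same in all 15 alternatives.

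Counts of calls moved more. With the line as a replicate block, edgeR called 5 of the related genes, against 9 without it, and 311 of all genes, against 841; the block changed no call of the 10 enzymes. DESeq2 called 19 and 2382. With a library or line left out, 1 to 8 related genes and 19 to 700 of all genes were called; fewer samples were tested there. The cause of the other differences was not tested.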
